A study of Mus musculus with 18 samples.

Results

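The LIM homeobox genes Lhx1, Lhx3, Lhx4, Lhx8, Lhx9, Lmx1a, Lmx1b, Isl1 and Isl2 were followed across peak lists of H3K27me3, the trimethylated lysine of histone H3 that Polycomb repressive complex 2 leaves on silent genes. These 9 genes are a list of named members of 1 family, chosen by their roles in neuronal subtypes, out of 21887 protein-coding genes with a position in the annotation. For each gene the window was its span with 1 kb added at both ends, and a gene was counted as marked in a library when a peak overlapped that window. The mark was mapped by CUT&Tag, in which an antibody tethers a transposase that cuts and tags the DNA beside it, in single headfolds of mouse embryos at embryonic day 8.5. All embryos, those of the comparison groups included, were Gulo-/-, so none could make its own vitamin C. The 4 groups were B6 without vitamin C, B6 with vitamin C, 129 without vitamin C and 129 with vitamin C, where supplementation means 3.3 g/l in the drinking water and the other groups received nothing. Each group had 3 libraries with a peak list, from 2 female embryos and 1 male embryo, and the B6 libraries keep the numbers 1, 2 and 4. No Gulo wild type embryo was included. The 3 B6 embryos with vitamin C carry 1 pregnancy code, and every other embryo has a code of its own.

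LIM homeodomain proteins bind DNA through a homeodomain and bind each other and the adaptor Ldb1 through paired LIM zinc fingers, and the combination present in a young neuron helps to set what kind of neuron it becomes. Most of them are switched on in the neural tube as progenitors leave the cell cycle, which in the mouse follows the open headfold stage. Genes of this kind are textbook Polycomb targets in pluripotent and progenitor cells: their CG-rich starts carry H3K27me3 until the lineage that uses them appears.

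Peak lists differed much in size. They held 748 to 4726 peaks and covered 3.58, 4.15 and 15.0 Mb in B6 without vitamin C, 11.4, 8.69 and 26.97 Mb in B6 with vitamin C, 26.2, 6.97 and 25.9 Mb in 129 without vitamin C and 31.7, 17.8 and 20.5 Mb in 129 with vitamin C. B6 replicate 1 without vitamin C and B6 replicate 2 with vitamin C stood apart by short peaks, with median widths of 1322 and 1410 bases. Read depth is not given in the peak lists, so it is unknown how far list length follows depth, and library numbers run with the background. In whole tissue, fewer cells carrying the mark and less of it per cell cannot be told apart. Of 6 neural plate genes, 3 were marked in at least 10 lists (Six3 in 11, Rax and Lhx2 in 12), while Sox2 was marked in 2, Otx2 in 3 and Hesx1 in 0. Of 14 genes of blood, vessel, mesoderm, heart, endoderm, neural crest and surface ectoderm, 8 were marked in at least 10 lists. Gata1, Cdh5 and Tbx6 were marked in 0, Krt8 in 1, and Hba-x and Epcam in 2 each. Over all protein-coding genes, 5.93% were marked in at least 10 lists. A peak list does not name the cells it came from, and the part of other cells in the results was not tested.

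The DNA just upstream of the transcription start differed widely among the 9 genes. RefSeq promoter sequences on the GRCm38.p6 build matched all 9, and the 250 bases before the start held 33 CG dinucleotides at Isl1, 26 at Lhx1, 19 at Lmx1b, 16 at Isl2, 14 at Lhx4, 11 at Lhx3, 9 at Lmx1a and 4 at both Lhx8 and Lhx9, against a median of 10 over 17492 protein-coding genes with a promoter sequence. The 4 below are shown because they hold the CG-richest stretch and one of the CG-poorest, the stretches covered in the most and the fewest lists, and the related pair Isl1 and Isl2: Lhx1 (chr11:84525535-84525784, minus strand), Isl1 (chr13:116309689-116309938, minus strand), Isl2 (chr9:55540899-55541148, plus strand) and Lhx8 (chr3:154330561-154330810, minus strand). Each is written 5′ to 3′ on the gene's strand, ending at the base before the start, with every CG dinucleotide in capitals.
Lhx1: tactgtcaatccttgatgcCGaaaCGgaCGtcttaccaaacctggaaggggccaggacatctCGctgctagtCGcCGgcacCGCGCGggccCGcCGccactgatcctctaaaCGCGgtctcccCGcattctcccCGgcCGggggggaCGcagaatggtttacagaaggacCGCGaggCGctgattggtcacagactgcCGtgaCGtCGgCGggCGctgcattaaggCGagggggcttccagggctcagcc
Isl1: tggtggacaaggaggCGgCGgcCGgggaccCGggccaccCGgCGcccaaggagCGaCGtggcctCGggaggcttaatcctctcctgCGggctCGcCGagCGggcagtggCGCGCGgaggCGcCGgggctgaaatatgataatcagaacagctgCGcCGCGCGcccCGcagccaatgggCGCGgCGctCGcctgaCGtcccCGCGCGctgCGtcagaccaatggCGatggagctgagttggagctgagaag
Isl2: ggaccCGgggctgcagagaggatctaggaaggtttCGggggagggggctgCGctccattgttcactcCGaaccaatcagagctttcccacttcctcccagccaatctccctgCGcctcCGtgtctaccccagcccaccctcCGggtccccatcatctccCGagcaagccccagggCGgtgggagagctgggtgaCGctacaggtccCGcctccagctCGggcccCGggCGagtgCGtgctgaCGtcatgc
Lhx8: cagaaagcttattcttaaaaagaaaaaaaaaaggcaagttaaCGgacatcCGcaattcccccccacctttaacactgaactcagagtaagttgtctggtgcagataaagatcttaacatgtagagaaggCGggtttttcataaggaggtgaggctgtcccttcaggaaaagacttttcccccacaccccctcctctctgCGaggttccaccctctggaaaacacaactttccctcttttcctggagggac
A peak lay over the whole of this stretch in 11 lists at Lhx1, 10 at Isl2, 9 at Lhx8 and 3 at Isl1. The CG-richest of the 9 stretches, that of Isl1, was therefore the one covered in the fewest lists, and at least as many CG dinucleotides were found in 4.77% of all promoters. The CG-poor stretch of Lhx8 was covered in 9 lists although 70.3% of promoters hold at least as many.

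The palindrome GACGTC, the core of the cAMP response element, reads the same on both strands and lay in 4 of the 9 stretches, with 2 copies at Lhx1 and 1 at each of Lhx4, Isl1 and Isl2. In Isl2 its first base lies 10 bases before the start. It was found in 4.64% of all promoters of this length. TAATTA, a core to which homeodomains bind, also reads the same on both strands and lay in none of the 9 stretches, against 4.45% of all promoters. Both motifs were chosen after the sequences were seen.

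Nearly every one of the 9 genes carried the mark in nearly every library. Peaks met the window in 12 lists for Lhx1, Lhx3, Lhx4, Lhx9 and Isl2, in 11 for Lmx1a and Lmx1b, in 10 for Lhx8 and in 7 for Isl1. Thus 8 of 9 genes were marked in at least 10 lists, where 5.93% of protein-coding genes were, and 5 of 9 in all 12, where 2.18% were. When each list was cut to its 748 strongest peaks by total signal, the length of the shortest list, Lhx1, Lhx3, Lhx4 and Isl2 were still marked in all 12, Lhx9 in 10, Lhx8 and Lmx1b in 9, Lmx1a in 8 and Isl1 in 4; the share of protein-coding genes was then 2.15% for at least 10 lists and 0.882% for all 12.

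**Figure D1:**
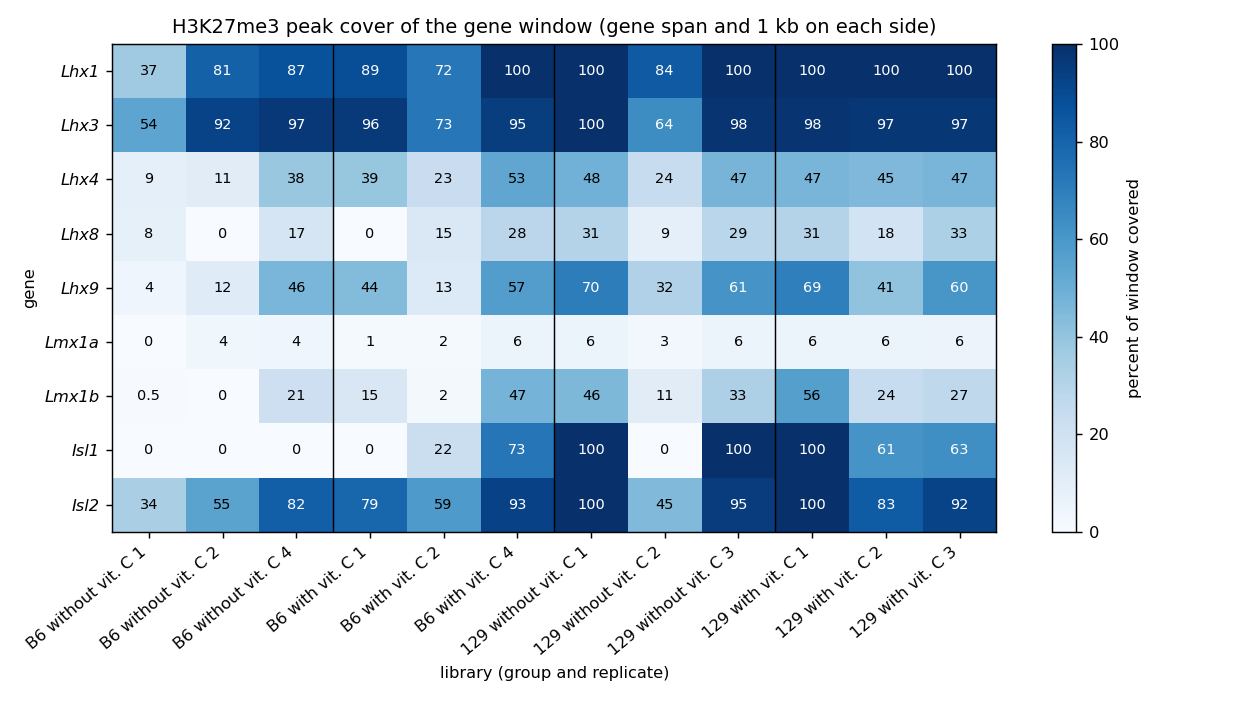
Percent of each gene's window covered by peaks, for 9 genes (rows) and 12 libraries (columns, grouped by background and vitamin C). Lhx1, Lhx3 and Isl2 are the darkest rows, Isl1 is at 0 in 5 libraries, and Lmx1a does not pass 6.18% because its window is 162.5 kb long.

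Lhx3 and Lhx4, a closely related pair that works in motor neurons and in the pituitary, differed in how far the mark reached. Lhx3 (chr2:26200212-26208249) was covered over 53.9, 92.4 and 96.9% of its window in B6 without vitamin C, against 95.7, 72.6 and 94.9% in B6 with vitamin C. In 129 the Lhx3 cover was 100, 64.3 and 97.8% without vitamin C, against 97.9, 97.0 and 97.2% with it. The lowest value in each background without vitamin C lay below every value with it, and the others overlapped. The upstream edge of Lhx3 was a sharp one: in the 11 lists whose peaks covered the start, they ended between 0.151 and 1.22 kb before it, a median of 0.685 kb. In 129 replicate 2 without vitamin C the Lhx3 peak began downstream of the start. On the other side the peaks of all 12 lists ran past the gene's end, to between 10.03 and 16.5 kb from the start. The next gene upstream, Qsox2, begins its annotated span 0.875 kb from Lhx3, and a peak reached it in 1 list. A stretch of 1.65 kb beyond the 3′ end, 8.39 to 10.03 kb from the start, was covered in all 12 lists.

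Lhx4 (chr1:155698031-155751726) is 53.7 kb long and the mark sat on its first part. Its window cover was 8.67, 10.98 and 38.4% in B6 without vitamin C and 39.1, 23.0 and 53.2% in B6 with vitamin C. In 129 it was 48.4, 24.1 and 46.9% without vitamin C and 46.7, 45.3 and 46.7% with it. Replicates 1 and 2 of B6 without vitamin C were the lowest of the 12, and each of the 4 groups overlapped its counterpart on the other diet. Of the Lhx4 bases covered inside the gene, 98.4% lay in the first 50% of its length (pooled over lists). The median over 1401 genes longer than 20 kb was 100%. Lhx4 peaks reached a median of 11.4 kb upstream of the start listed here, which is 9.70 kb inside the annotated 5′ end, and 14.9 kb downstream. In 4 lists the same 1.03 kb, from -2.93 to -1.90 kb relative to the start, lay between peaks and was uncovered.

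Isl1 and Isl2 both act in motor neurons, Isl1 also in the second heart field, and the mark was spread over them differently. Isl2 (chr9:55538677-55547667) was marked in 12 lists, with 33.7, 54.7 and 82.0% of its window covered in B6 without vitamin C and 79.2, 59.0 and 93.2% in B6 with vitamin C. Its 129 values were 100, 44.8 and 95.3% without vitamin C and 100, 83.0 and 92.3% with it. Isl1 (chr13:116298270-116309688) was at 0 in 3 of 3 B6 libraries without vitamin C and at 0, 22.5 and 73.0% in those with vitamin C. In 129 Isl1 was covered over 100, 0 and 100% without vitamin C and over 100, 61.2 and 63.3% with it. The 0 values came from libraries with 3.58, 4.15, 15.0, 11.4 and 6.97 Mb covered in all, the 7 libraries with an Isl1 peak from ones with 8.69 to 31.7 Mb. Where the mark was present in the Isl1 window it lay over the gene body more than the start. The strongest point of the strongest peak there was 3.99 to 6.51 kb downstream of the start in all 7 lists. The start itself was covered in 3, and in the other 4 no peak that met the window reached upstream of it. Of these 4, B6 replicates 2 and 4 with vitamin C had other peak bases farther than 1 kb upstream. Peaks covered 13.8 and 38.7% of the 10 kb centred on the start in these 2 libraries. Isl1 has no coding neighbour nearer than 541 kb.

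Lhx1, which head formation and later kidney and spinal interneurons require, had its whole window covered in 6 lists, the most of the 9 genes. Lhx1 (chr11:84517975-84525534) was covered over 37.0, 81.1 and 86.9% of its window in B6 without vitamin C and 88.6, 72.4 and 100% in B6 with vitamin C. In 129 it was 100, 83.8 and 100% without vitamin C and 100% in each library with it. In most lists the peaks that met the window lay over the gene and ran beyond both of its ends. They reached a median of 6.94 kb and up to 11.5 kb upstream, and a median of 12.29 kb downstream. These peaks lay over the non-coding gene Lhx1os in 11 lists and over the near end of Aatf in 9. In B6 replicate 1 without vitamin C, the list not among the 11, peak bases outside the window covered part of Lhx1os. The downstream edge lay within 1 kb of that median in 9 of 12 lists. A 1.90 kb stretch 4.03 to 5.92 kb from the start was covered in every list, and a 0.970 kb stretch at the gene's 3′ end was uncovered between peaks in 3.

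Lhx9, of dorsal spinal interneurons and the early gonad, was marked most firmly ahead of the start used here, which lies 6.40 kb inside its annotated 5′ end. Lhx9 (chr1:138825186-138848839) had 4.00, 12.0 and 46.4% of its window covered in B6 without vitamin C and 44.0, 13.4 and 57.4% in B6 with vitamin C. In 129 its cover was 69.99, 31.8 and 61.2% without vitamin C and 69.3, 40.6 and 60.3% with it. The single stretch covered in all 12 lists, 0.937 kb long, ran from -4.39 to -3.45 kb relative to the listed start, and the start itself was covered in 8. In B6 replicates 1 and 2 without vitamin C no Lhx9 peak lay downstream of the start.

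Lhx8, needed for cholinergic neurons of the basal forebrain, was marked at its 5′ end and upstream. Lhx8 (chr3:154306288-154330560) had 8.26, 0 and 17.1% of its window covered in B6 without vitamin C and 0, 14.8 and 28.3% in B6 with vitamin C. In 129 its cover was 30.5, 9.00 and 28.8% without vitamin C and 30.6, 18.4 and 32.9% with it. One of the 0 values hides a peak: in B6 replicate 1 with vitamin C, peaks covered 22.1% of the 10 kb centred on the start, all of it farther than 1 kb upstream. Likewise Lmx1b, at 0 in its window in B6 replicate 2 without vitamin C, had 32.1% of that 10 kb covered. A 1.13 kb stretch that begins 0.008 kb downstream of the Lhx8 start was covered in each of the 10 lists with a peak in its window. In 9 of these lists the window's peak overlapped AI606473, a non-coding gene that lies just upstream. The cover outside the window in B6 replicate 1 with vitamin C overlapped AI606473 too. Of the Lhx8 bases covered inside the gene, 100% lay in the first 50% of its length.

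Lmx1a and Lmx1b, paralogs of the roof plate and of midbrain dopamine neurons, with Lmx1b also in serotonin neurons, are the longest of the 9 genes, and the percent of the window understates how fully their starts were marked. At Lmx1a (chr1:167688230-167848741) peaks covered 0, 58.4 and 71.8% of the 10 kb around the start in B6 without vitamin C and 24.1, 35.4 and 93.5% in B6 with vitamin C. In 129 this start cover of Lmx1a was 99.3, 57.9 and 92.6% without vitamin C and 94.5, 93.5 and 91.2% with it. Lmx1a peaks ended 4.12 kb upstream and 7.19 kb downstream of the start at the median, and the latter edge lay within 1 kb of the median in 6 of 11 lists. Lmx1b (chr2:33560965-33641208) had 32.5, 32.1 and 100% of the 10 kb covered in B6 without vitamin C and 100, 28.3 and 100% in B6 with vitamin C. In 129 the Lmx1b values were 100, 73.7 and 100% without vitamin C and 100% in each library with it. In B6 both genes had libraries with little cover. Only replicate 4 with vitamin C passed 90% at Lmx1a, and at Lmx1b replicate 4 without and replicates 1 and 4 with vitamin C did. The lowest 129 value of each gene was that of replicate 2 without vitamin C. Lmx1b had the widest peak of the set, 41.8 kb, and in 4 lists a separate block inside the gene, beyond a 17.3 kb uncovered stretch that runs from 36.6 to 53.8 kb downstream of the start. Those 4 lists were B6 replicate 4 with vitamin C, 129 replicate 1 without vitamin C, and 129 replicates 1 and 3 with vitamin C.

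**Figure D2:**
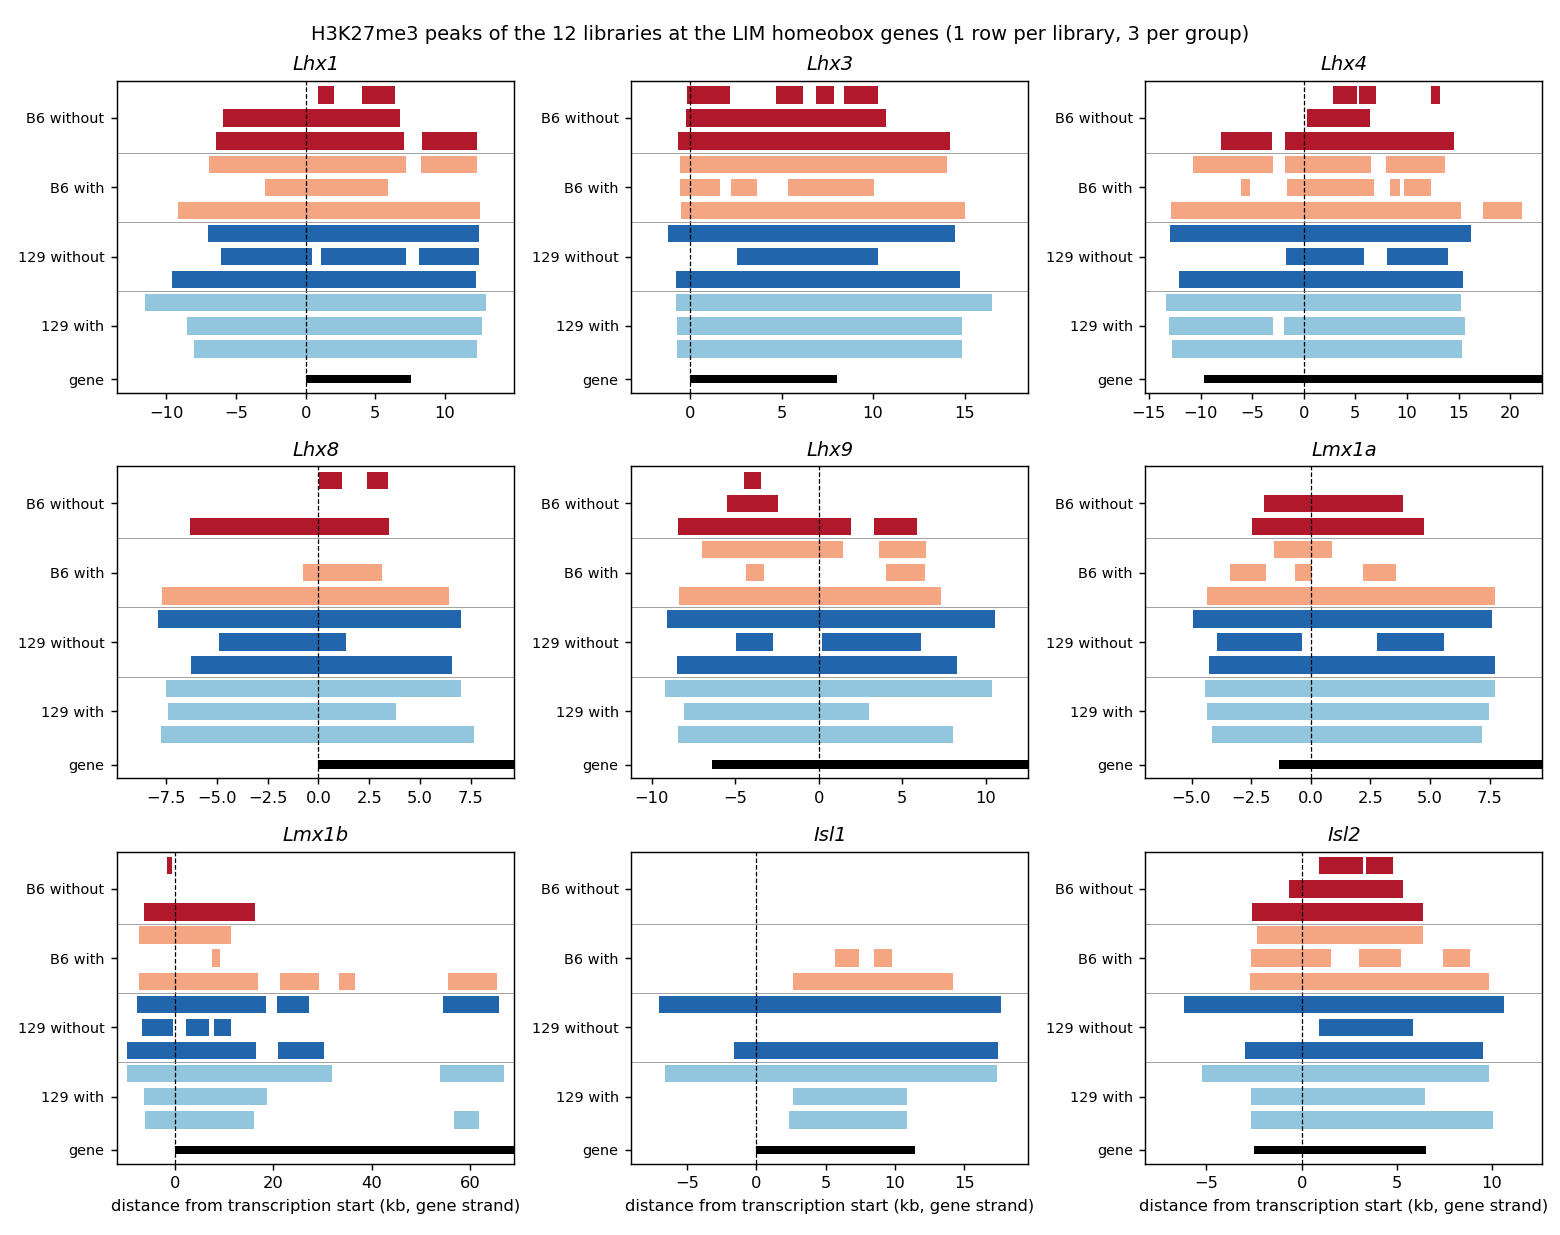
Peaks of each library that overlap the gene's window (coloured bars, 1 row per library, 3 per group) against distance from the transcription start in kb along the gene's strand. Peaks that lie wholly outside the window are not drawn. The black bar is the annotated gene and the dashed line the start. Lhx3 peaks end 0.151 to 1.22 kb upstream of the start in 11 rows and do not reach it in the other, Isl1 rows are empty in 5 libraries, and Lmx1b has a block beyond 53.8 kb in 4.

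Over the same 10 kb around the start, the median over the 12 lists was 100% for Lhx1 and Lmx1b, 88.9% for Lhx4, 86.6% for Lhx8, 83.1% for Lhx9, 81.5% for Lmx1a, 76.2% for Isl2, 56.3% for Lhx3 and 18.7% for Isl1. A median of at least 50% was reached by 8 of the 9 genes and by 4.25% of 17492 protein-coding genes. From Lmx1b to Isl2 the neighbours in this order differed by less than their spread over libraries: Lhx4 ranged from 21.6 to 100%, Lhx9 from 10.3 to 100% and Isl2 from 37.1 to 100%. Lhx3 had a highest value of 62.2%.

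**Figure D3:**
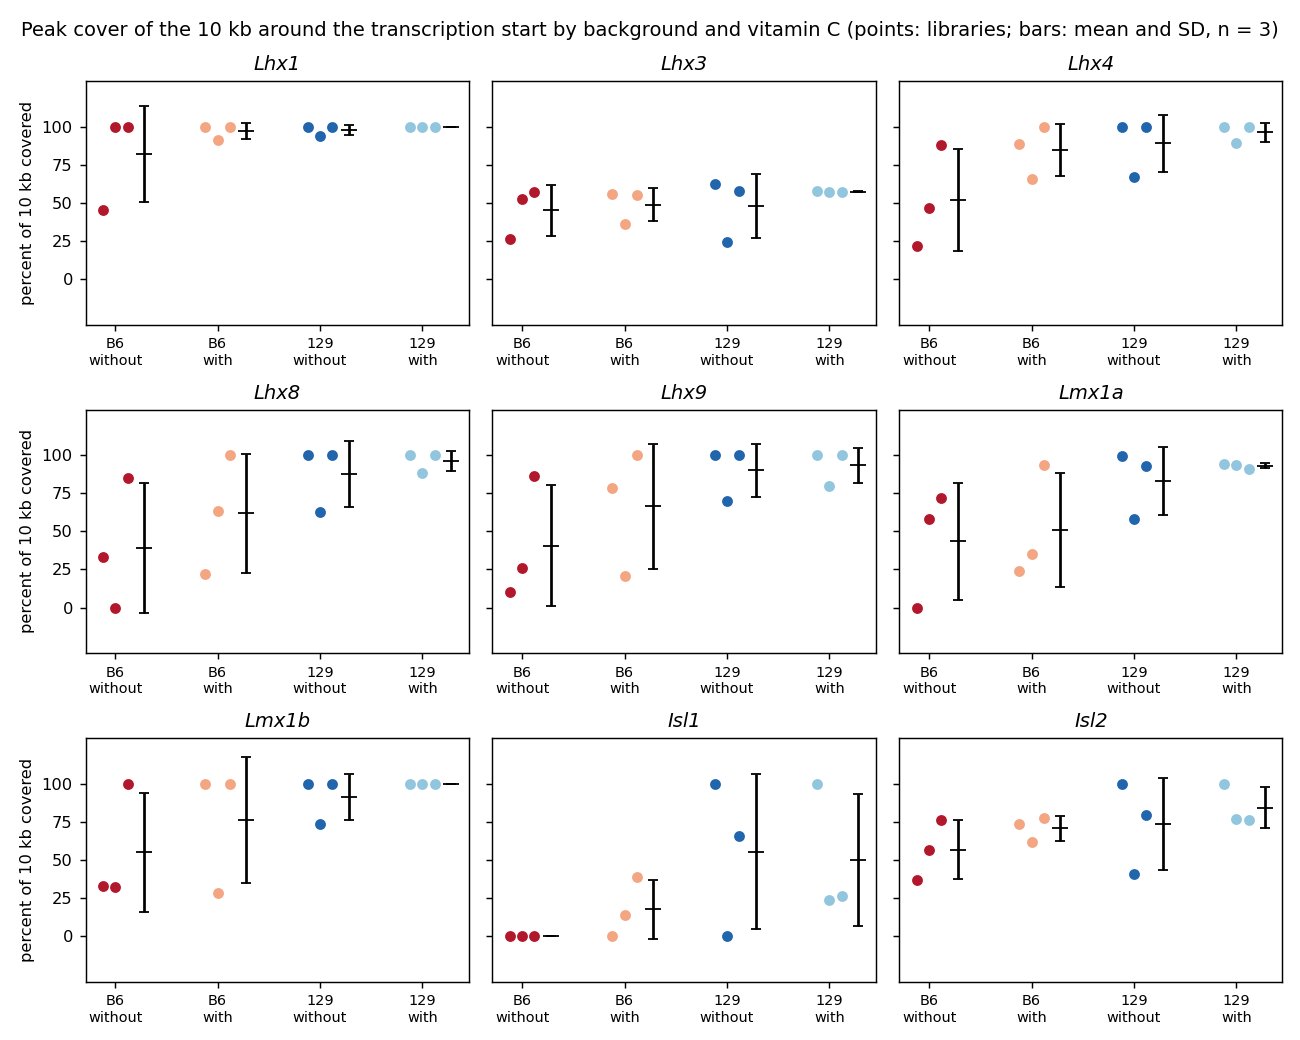
Percent of the 10 kb centred on the transcription start covered by peaks, for each library (points) with the group mean and SD (bars, n = 3), B6 and 129 without and with vitamin C. In 129 with vitamin C the values of Lhx1 and Lmx1b are at 100% in every library, and Isl1 is at 0 in the 3 libraries of B6 without vitamin C.

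The genes also differed in the strength of their peaks, read as a rank within each list because the authors' signal values carry no scale between libraries. By total signal, which grows with width, the highest-ranked peak at Lhx1 stood at a median percentile of 97.2 (84.4 to 98.7 over the lists), that at Lhx4 at 96.7 (89.2 to 99.1) and that at Lhx3 at 95.8 (88.4 to 98.5). Lmx1b followed at 94.5, Isl2 at 89.98, Lhx8 at 89.2, Lhx9 at 89.0, Isl1 at 85.3 and Lmx1a at 84.6. The last 6 had wide ranges, such as 10.4 to 97.8 for Lmx1b and 4.58 to 96.3 for Lhx9. By maximum signal, the height of a peak, Lhx4 had a median percentile of 92.7, Lhx3 of 92.2, Lhx1 of 85.5 and Lhx8 of 82.4. Isl1 ranked lowest by height, at 31.2 (8.85 to 53.7). The widest peak at each gene had a median width between 9.07 kb at Isl2 and 22.5 kb at Lmx1b, with Isl1 at 11.6 kb.

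**Figure D4:**
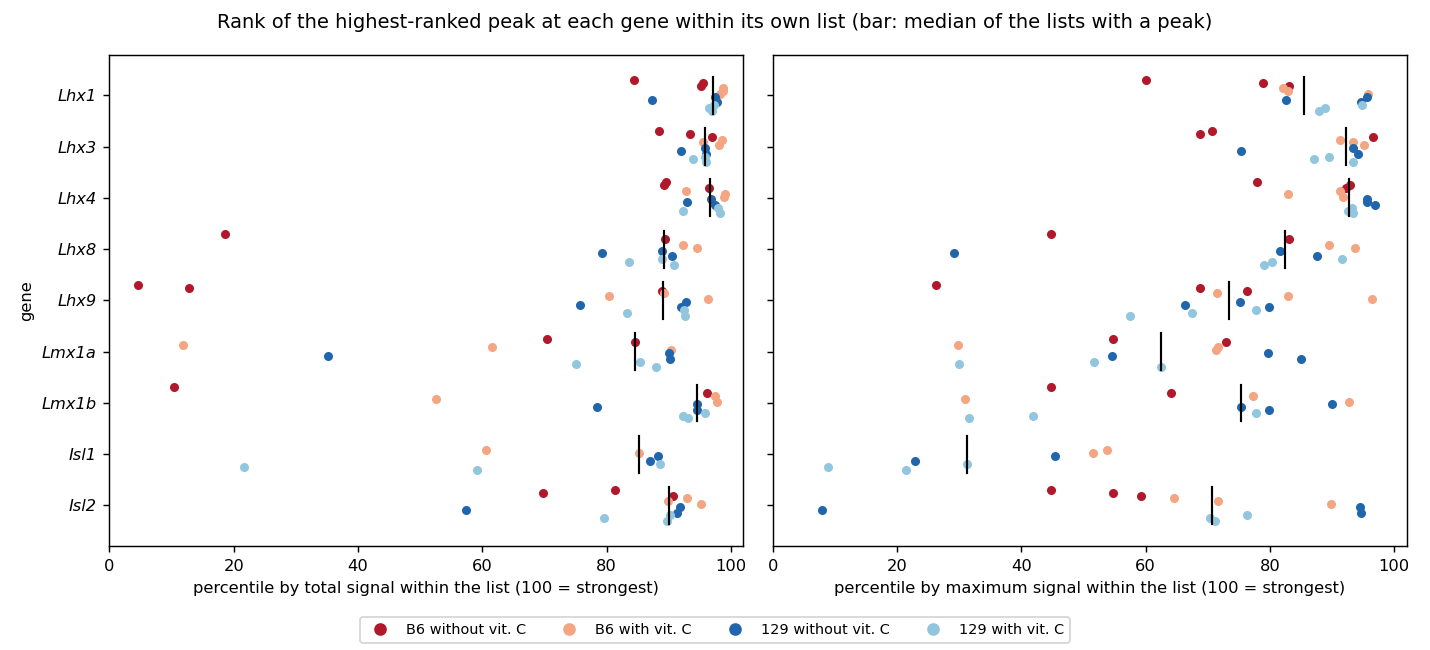
Percentile of the highest-ranked peak at each gene within its own list, by total signal (left) and by maximum signal (right); points are libraries coloured by group, and bars are medians of the lists with a peak. Lhx1, Lhx3 and Lhx4 lie above 84 by total signal in every list, and Isl1 has a median of 31.2 by maximum signal.

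The first comparison asks whether the mark at these genes differs without and with vitamin C. Window cover was lower without vitamin C at the mean of each of the 9 genes, and at none did the difference pass the test. The differences, without minus with vitamin C and averaged over both backgrounds, were -20.0 percentage points for Isl1, -16.0 for Isl2, -12.8 for Lhx4, -12.0 for Lhx1, -10.2 for Lmx1b, -9.92 for Lhx9, -8.36 for Lhx3, -5.21 for Lhx8 and -0.69 for Lmx1a. Their exact permutation p-values, two-sided with diet labels exchanged within background, ran between 0.135 (Lhx4) and 0.555 (Lmx1a), and the adjusted values between 0.800 and 0.863. The smallest p this design allows is 0.005. At that floor a single gene cannot pass the adjustment over 3460 genes, so a call needs many genes near it at once. As group means, Isl1 was covered over 33.3 ± 51.6% without and 53.3 ± 36.1% with vitamin C, and Isl2 over 68.4 ± 27.7% and 84.4 ± 14.6% (SD, n = 6 each). The Isl1 difference turned to 4.51 points with lists of equal length and 4.74 within 1 kb of either gene end, that of Lmx1a to 0.32 with peaks at or above the list's median maximum signal and 0.091 without B6 replicate 4 with vitamin C, and that of Lhx8 to 0.34 without the sparsest library of each background. The spread within a diet was larger than the difference at Isl1, and at Isl2 it was larger without vitamin C.

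A lower value without vitamin C was the rule for the whole genome: 85.1% of the 3460 protein-coding genes tested had a difference below 0. The median difference was -10.2 points over the 9 genes and -2.76 points over the 3460. Single libraries moved the first value: it was -5.71 and -16.3 without B6 replicates 1 and 4 without vitamin C, -15.7 and -6.58 without B6 replicates 2 and 4 with vitamin C, and -4.28 without 129 replicate 2 without vitamin C. Of the 3460 genes, 0 (0.0%) passed an adjusted p of 0.05 by the exact permutation test, and 71 (2.05%) had an unadjusted p under 0.05, each of them lower without vitamin C. That count fell to 23 when B6 replicate 2 without vitamin C was left out and was 216 without B6 replicate 4 of the same group. Of the 9 genes, 3 were marked in fewer lists without than with vitamin C (Isl1 in 2 and 5, Lmx1a and Lmx1b each in 5 and 6) and 0 in more, against 62.2% of all genes tested in fewer and 7.31% in more.

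The total covered length moved with diet too, and its part in these differences was not tested. Of all covered bases in the B6 libraries, the 9 windows held 0.590, 0.917 and 0.596% without vitamin C and 0.654, 0.552 and 0.519% with it. In 129 their share was 0.550, 0.819 and 0.501% without vitamin C and 0.479, 0.601 and 0.585% with it. As a share of what each list covered, the values with and without vitamin C overlapped. This share cannot separate diet from total covered length, because a window cannot be covered beyond its full length while a list can grow. It was 0.917% of 4.15 Mb in B6 replicate 2 without vitamin C. In 129 replicate 1 with vitamin C it was 0.479% of 31.7 Mb. The smallest total, 3.58 Mb in B6 replicate 1 without vitamin C, went the other way at 0.590%. Whether the 9 genes differed by diet apart from total covered length was not tested. In absolute length they held 21.1, 38.1 and 89.3 kb in B6 without vitamin C and 74.7, 48.0 and 140 kb in B6 with vitamin C, and in 129 held 144, 57.1 and 130 kb without and 152, 107 and 120 kb with it.

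Within each background the sign was the same, and 3 libraries against 3 cannot give a p below 0.1. In B6 all 9 differences lay below 0 with a median of -17.5 points, led by Isl1 (-31.8), Isl2 (-20.3), Lhx4 (-19.1) and Lhx1 (-18.7), and exact permutation p-values of 0.2 to 1.0. In 129 they were likewise below 0, with a median of -6.05 points, led by Isl2 (-11.7) and Lhx3 (-10.02), and exact permutation p-values of 0.5 to 1.0. The share of all genes tested with a difference below 0 was 90.8% in B6 and 68.8% in 129. At none of the 9 genes did the libraries of the 2 diets separate fully within a background, where 3.32% of genes were lower without overlap in B6 and 3.99% in 129. The diet difference itself did not pass a test between backgrounds at any of the 9: it was 23.7 points less negative in 129 than in B6 at Isl1 (exact permutation p = 0.61), the widest gap, and the 9 p-values ran between 0.455 and 0.955. That gap was above 0 at 7 of the 9 genes and at 68.9% of all genes, of which 0.0867% had an unadjusted p under 0.05. The B6 with vitamin C embryos share a pregnancy, so litter and diet cannot be told apart within B6. The diet test over both backgrounds and the test of B6 against 129 also treat these littermates as separate libraries.

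The second comparison sets B6 beside 129. Cover was lower in B6 at all 9 genes at the mean of both diets, and none passed the test after adjustment. The difference, B6 minus 129, was -54.8 points for Isl1, -26.0 for Lhx9, -19.6 for Lhx1, -18.9 for Isl2, -18.5 for Lmx1b, -14.1 for Lhx4, -13.6 for Lhx8, -7.97 for Lhx3 and -2.69 for Lmx1a. Isl1 averaged 15.9 ± 29.4% in B6 and 70.7 ± 39.3% in 129 (SD, n = 6 each; exact permutation p = 0.06, adjusted p = 0.270), and it was marked in 2 of 6 B6 lists against 5 of 6 lists of 129. Lhx1 averaged 77.7 ± 21.9% in B6 and 97.3 ± 6.60% in 129 (exact permutation p = 0.04, adjusted p = 0.258), and it was the one member with an unadjusted p under 0.05; 16.8% of the 3460 genes were lower in B6 with such a p. That p of Lhx1 rose to between 0.06 and 0.10 when B6 replicate 1 without vitamin C (0.06), B6 replicate 2 with vitamin C (0.07) or any 1 of the 129 libraries without vitamin C (0.1, 0.06 and 0.1 for replicates 1, 2 and 3) was left out. It was also 0.09 over the gene span alone, 1.0 with peaks less than 5 kb apart joined, 0.5 over the 10 kb around the start, 0.14 without both short-peak libraries and 0.0667 without the sparsest library of each background. Directions turned at 3 genes: the background difference was 13.8 points at Isl1 with peaks at or above the list's median maximum signal, 8.87 at Lhx4 with cover of at least 50% required, and at Lhx3 2.14 with near peaks joined and 2.59 without both short-peak libraries.

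Here too the direction was that of the genome as a whole, with 90.8% of the 3460 genes below 0 and a median of -5.32 points, against -18.5 over the 9 genes. The value over the 9 was -8.64 without both short-peak libraries, -9.39 with cover of at least 50% required, -12.04 with near peaks joined and -30.1 over the 10 kb around the start. By the exact permutation test 0 genes (0.0%) passed an adjusted p of 0.05, and 584 (16.9%) had an unadjusted p under 0.05. Without B6 replicate 1 without vitamin C the 584 became 341, and without 129 replicate 2 without vitamin C 1120. In the vitamin C groups Lhx3 cover did not overlap between backgrounds, at 72.6 to 95.7% in B6 and 97.0 to 97.9% in 129, as was so for 13.1% of genes. Without vitamin C the backgrounds overlapped at each of the 9, where 6.56% of genes were lower in B6 without overlap. Lhx8, Lmx1a, Lmx1b and Isl1 were marked in fewer lists of B6 than of 129 (4 and 6, 5 and 6, 5 and 6, and 2 and 5), as were 59.3% of genes, and 0 of the 9 in more, as were 10.9%. Background cannot be told apart from library number, which runs with it.

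The other LIM homeobox genes of the forebrain and eye field were also marked in nearly every library. Lhx2 and Lhx6 were marked in 12 lists and Lhx5 in 11. Their diet differences were -16.0, -11.6 and -22.1 points for Lhx2, Lhx6 and Lhx5 (exact permutation p = 0.295, 0.125 and 0.285), and their differences between B6 and 129 were -30.2, -16.9 and -32.0 points (exact permutation p = 0.055, 0.025 and 0.06). Among 9 LIM-only and LIM-binding genes, whose products partner the family, 7 were marked in 0 lists, near the 79.8% of all protein-coding genes with a peak in none: Lmo3, Lmo4, the adaptors Ldb1 and Ldb2, the ubiquitin ligase gene Rlim, and Ssbp2 and Ssbp3, whose products stabilise the adaptor. Lmo1 was marked in 6 lists and Lmo2, a blood stem cell factor, in 8, with diet differences of -1.76 and -0.56 points. Neither Lmo gene differed with an exact permutation p under 0.05 by diet or by background.

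Genes that act beside the 9 in the same neurons were mostly marked too. Of 24 such genes, 21 were marked in at least 10 lists and 14 in all 12, against 5.93 and 2.18% of protein-coding genes. Among the 14 were the motor neuron gene Mnx1, the interneuron genes Gata2, Gata3 and Sox14, the serotonin neuron gene Fev and the dopamine neuron gene Pitx3. The genes for a pair of enzymes of the finished neuron, Th for dopamine and Tph2 for serotonin, were marked in 0 lists. The serotonin transporter gene Slc6a4 was marked in 10, and the acetylcholine genes Chat and Slc18a3, which share a locus, in 12. Otx2 was marked in 3 lists, none of them without vitamin C (exact permutation p = 0.2 by diet). Of all genes tested, 62.2% were marked in fewer lists without vitamin C. Of the 22 genes tested, 20 had diet differences below 0 and 2 above it, where 85.1% of all genes tested were below 0. By diet 0 had an exact permutation p under 0.05 (2.05% of all genes did), and the median was -10.4 points. By background 22 of 22 were lower in B6, as were 90.8% of all genes tested, with a median of -18.5 points. Of the 22, 6 had an exact permutation p under 0.05, against 16.9% of all genes.

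Outside these lists, the 5 protein-coding genes whose cover over the 12 lists came nearest to the mean profile of the 9 genes were Gata5, Nodal, Gcgr, Rasal3 and Tbx4. Their root mean square distance from that profile was 7.59, 7.96, 8.12, 8.41 and 8.42 percentage points. The measure runs over 12 lists that share their library and total covered length.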

How the data were processed

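H3K27me3 CUT&Tag peak lists of 12 of the 18 libraries were used. Left aside were 4 IgG samples and 2 more B6 samples of the same mark (not analysed here). Per the submitters' processing notes, cutadapt, Bowtie2, Picard and SEACR were used with mm10. Versions, and whether IgG or a numeric threshold set the calls, are not stated in the labels. Each list deposited by the authors holds the peaks of 1 library with their total and maximum signal, whole numbers with no stated scaling, so signal was only ranked within a list.

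The members and lists were chosen with earlier results of these data known. Gene positions came from RefSeq on GRCm38.p6, the same assembly as mm10, and starts from its promoter table (the first listed promoter of a gene). The measure was the percent of the gene span, extended by 1 kb at both ends, that peaks covered. Diet labels were exchanged within background, and background labels within diet, in every way (400 relabellings, two-sided exact permutation). P-values were adjusted by the Benjamini-Hochberg method over the 3460 protein-coding genes with a peak in at least 2 lists. The test was checked on simulated data. Nothing says that embryos of different codes were processed apart, so p-values measure the spread between these libraries. Every one of the 9 genes is named, with the other lists given by counts and the 5 most alike genes by distance. Alternatives changed the window, the peak filter, the list length and the libraries used. Python 3.11.15, NumPy 2.4.6, pandas 2.3.3 and Matplotlib 3.10.9 were used.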

Additional observations from a re-analysis of the deposited data

How the results depend on the processing

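No paired analysis was possible because replicate numbers follow accession order and pair no samples across groups. Under every alternative 0 genes passed an adjusted p of 0.05 by diet and by background. This count says little about stability. The smallest p in the main test was 0.005 and 3460 genes were adjusted together. A call therefore needed many genes near that floor at once. With single libraries left out, the number of called genes stayed at 0 by diet and by background. The median difference over the 9 genes then ran between -16.3 and -4.28 points by diet and between -22.9 and -13.2 by background. The 99 marked pairs of gene and library became 90 to 93. Under the other alternatives the medians stayed between -12.4 and -3.64 points by diet, and between -30.1 and -8.64 by background. Requiring peaks to cover at least 50% of the window left 46 of the 99 pairs, fewer by the construction of the filter.

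Genes with an unadjusted p under 0.05 by diet, 71 in all libraries, numbered 25 without B6 replicate 1, 23 without replicate 2 and 216 without replicate 4 of the group without vitamin C. They numbered 191 and 34 without B6 replicates 2 and 4 with vitamin C, 146, 26 and 121 without 129 replicates 1, 2 and 3 without vitamin C, and 27 without 129 replicate 1 with vitamin C. By background the 584 became 341 and 374 without B6 replicates 1 and 2 without vitamin C, 344 and 925 without B6 replicates 2 and 4 with vitamin C, 297, 1120 and 308 without 129 replicates 1, 2 and 3 without vitamin C, and 317 without 129 replicate 1 with vitamin C. Among other settings, the count by diet was 26 with equal lists, 7 with cover of at least 50% required, 32 within 1 kb of either gene end, 47 over the 10 kb around the start and 16 without the sparsest library of each background. By background it was 277 with peaks at or above the list's median maximum signal, 297 with equal lists, 168 with cover of at least 50%, 279 within 1 kb of either gene end and 167 without both short-peak libraries.

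Directions that turned round belonged to differences that had passed no test, and the cause was not tested. With peaks at or above the list's median maximum signal, the diet difference was 0.32 points at Lmx1a and the background difference 13.8 at Isl1, and the diet difference in 129 minus that in B6 was -0.24 at Lhx8, 0.31 at Lmx1a and -14.9 at Isl2. With lists of equal length, the diet difference at Isl1 was 4.51 points and the difference between backgrounds in it -5.88 at Lmx1b. With peaks less than 5 kb apart joined, the background difference at Lhx3 was 2.14, and the diet differences differed between 129 and B6 by -1.08 at Lhx8 and 0.81 at Lmx1a. With cover of at least 50% required, the background difference at Lhx4 was 8.87 and the gap between the diet differences -18.8 at Lmx1b. 4 further alternatives, the 10 kb around the start among them, were chosen after seeing the data. Within 1 kb of either gene end, the diet difference at Isl1 was 4.74, and the gap was -4.21 at Lhx9 and 2.37 at Lmx1a. Without both short-peak libraries the background difference at Lhx3 was 2.59. Without the sparsest library of each background the diet difference at Lhx8 was 0.34, and the gap was 13.9 at Lhx3 and 1.01 at Lmx1a. With single libraries left out, the diet difference at Lmx1a ran between -1.11 and 0.091 points. The gap between the diet differences of 129 and B6 then ran between -2.38 and 22.5 at Lhx1, -16.9 and 8.23 at Lhx3, -5.54 and 8.63 at Lhx8, -2.09 and 0.54 at Lmx1a, -4.72 and 18.5 at Lmx1b, and -2.97 and 26.2 at Isl2.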
